A study of Mus musculus with 6 samples.

Results

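The transcripts of 10 genes of TGF-beta signaling were followed in Tyr-H and Tyr-L cells: the ligand genes *Tgfb1*, *Tgfb2* and *Tgfb3*, the receptor genes *Tgfbr1*, *Tgfbr2* and *Tgfbr3*, the SMAD genes *Smad6*, *Smad7* and *Smad9*, and the pseudoreceptor gene *Bambi*. They were taken by gene symbol as members of the pathway, with earlier results of these data known, and all 10 were found among the 20788 genes listed in at least 1 library. Tyr-H and Tyr-L cells are subclones of B16, a pigmented melanoma line of C57BL/6 mice, which the study picked as single colonies and told apart by high or low use of tyrosine, the amino acid from which melanin is made. Both were grown in low-glucose medium with serum, and mRNA was sequenced from 3 libraries of each. Neither the labels nor the methods say whether the 3 libraries were separate cultures or came from more than 1 clone, so the p-values measure the spread between these libraries, which may be technical, and a clone cannot be told apart from its group.

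TGF-beta ligands are secreted in a latent form and, once released from it, bring together a type II receptor (TGFBR2) and a type I receptor (TGFBR1), which phosphorylates SMAD2 and SMAD3. Bone morphogenetic proteins (BMPs) act through related receptors on SMAD1, SMAD5 and SMAD9, and both branches share SMAD4. SMAD6, SMAD7 and BAMBI hold the signal back, and their genes are themselves switched on by it, which makes feedback. In melanocytes TGF-beta is known to slow growth and pigment production, and melanoma cells often secrete it while escaping its brake on growth.

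Expression was given in FPKM, the fragments of a transcript per kilobase of its length and per unit of library depth, so that genes could be set side by side. The libraries held an estimated 19200000 to 22100000 fragments and listed 16813 to 17413 genes. All 7 melanocyte lineage markers were present at 1 FPKM or more, while *Ptprc*, *Cd3e*, *Cdh5*, *Kdr* and *Krt1*, defining genes of leukocytes, endothelium and keratinocytes, were not listed in any library. The remaining endothelial marker (*Pecam1*, 1 of 4 listed) was at 0.0138-0.0540 FPKM, and the keratinocyte markers (3 of 4 listed) summed to 0-0.0546 FPKM. Of 5 leukocyte markers 3 were listed, mainly *Cd68*, with a sum of 3.44-4.18 FPKM for Tyr-L against 4.44-4.83 FPKM for Tyr-H cells, and their part in the results was not tested. The summed fibroblast markers were 2.26 to 2.52 FPKM for Tyr-L and 2.06 to 2.39 FPKM for Tyr-H cells. *Tyr*, the tyrosinase gene behind the names of the groups, measured 10.0 ± 0.602 FPKM (Tyr-L) against 21.3 ± 2.14 FPKM (Tyr-H, mean ± SD, n = 3), the direction of the labels. The other 6 melanocyte lineage markers lay lower in all Tyr-H than in all Tyr-L libraries. Their log2 fold changes ran from -0.23 for *Tyrp1* to -1.85 for *Mitf*, and their part in the results was not tested. When the libraries were aligned by median ratios, *Tyrp1* and *Mlana* lay at only -0.079 and -0.091. Tyr-L library 1 stood apart: the structural RNAs *Rn7sk* and *Rmrp*, looked up after the values were seen, were 9.03 and 9.70 times the mean of the other two Tyr-L libraries. Calls of named genes that changed without this library are given both ways.

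A gene was called where limma's adjusted p over all 14336 tested genes was at most 0.05 and the log2 fold change, Tyr-H over Tyr-L on log2(FPKM + 0.1), was at least 1 in size. *Tgfb1* was called higher in Tyr-H cells, 1 of the 10 genes where 2.96% of all tested genes were called higher. *Smad6* and *Smad9* were called lower, 2 of the 10 where 5.78% of all tested genes were called lower. The other 7 were not called, and none of these had a log2 fold change beyond 0.24 in size. Without the threshold on size the same 3 genes passed, while 17.9% of tested genes passed as higher and 39.9% as lower. The levels of the 2 groups did not overlap in 6 of the 10 genes, against 64.0% of all tested genes. The median log2 fold change was -0.03 over the 10 genes and -0.15 over all tested genes. The latter moved to -0.01 when the libraries were aligned by median ratios, and the share of called genes that were higher moved from 33.9% to 47.8%, or to 55.3% with quantile normalization. The plot of log2 fold changes shows *Tgfb1* on one side, *Smad6* and *Smad9* on the other, and the rest near 0.

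**Figure D1:**
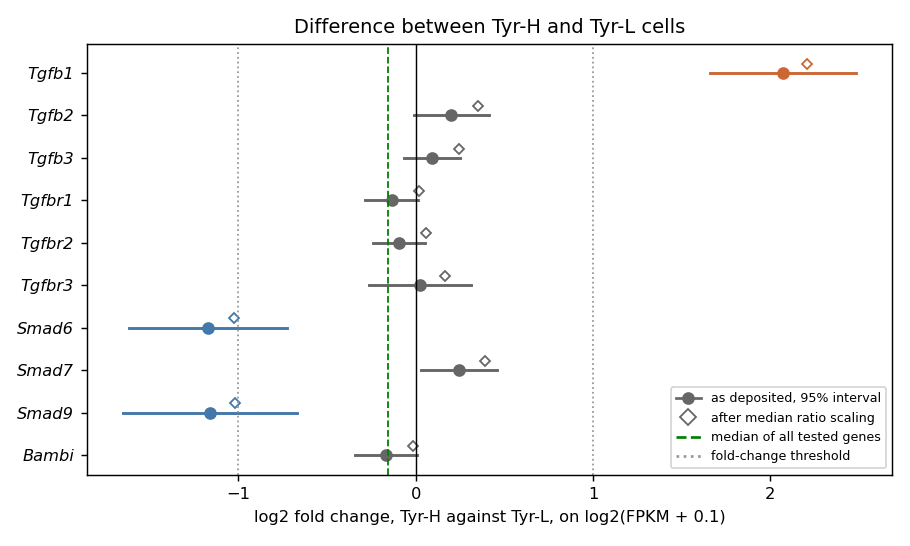
Log2 fold change of each of the 10 genes, Tyr-H over Tyr-L on log2(FPKM + 0.1), with limma's 95% confidence interval (n = 3 libraries per group); open diamonds are the values after median ratio scaling, and the dashed line is the median of all 14336 tested genes, -0.15. *Tgfb1* lies at 2.07, *Smad6* at -1.17 and *Smad9* at -1.16, and the other 7 lie within 0.24 of 0.

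The promoter windows of the 3 called genes are shown first, because these are the genes that moved. Each runs from 250 bases before the start of the transcript through its first 50 bases, 5′ to 3′ on the gene's strand (RefSeq, build GRCm38.p6). The windows lie at chr7:25686752-25687051 (plus strand, *Tgfb1*), chr9:64022010-64022309 (minus strand, *Smad6*) and chr3:54755332-54755631 (plus strand, *Smad9*). Capitals mark the letters GTCTAGAC or GGCGCC, sequences that SMAD proteins are known to bind.
Tgfb1: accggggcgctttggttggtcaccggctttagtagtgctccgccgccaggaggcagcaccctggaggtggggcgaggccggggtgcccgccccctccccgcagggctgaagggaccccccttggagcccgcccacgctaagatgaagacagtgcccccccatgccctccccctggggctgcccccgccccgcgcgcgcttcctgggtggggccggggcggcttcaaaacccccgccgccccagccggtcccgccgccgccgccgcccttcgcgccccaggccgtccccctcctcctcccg
Smad6: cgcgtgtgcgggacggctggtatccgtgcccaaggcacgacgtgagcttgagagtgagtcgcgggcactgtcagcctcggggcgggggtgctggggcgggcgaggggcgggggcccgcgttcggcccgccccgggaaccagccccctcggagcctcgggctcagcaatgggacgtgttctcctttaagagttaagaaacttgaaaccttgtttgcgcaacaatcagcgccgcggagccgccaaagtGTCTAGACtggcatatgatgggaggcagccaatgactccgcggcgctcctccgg
Smad9: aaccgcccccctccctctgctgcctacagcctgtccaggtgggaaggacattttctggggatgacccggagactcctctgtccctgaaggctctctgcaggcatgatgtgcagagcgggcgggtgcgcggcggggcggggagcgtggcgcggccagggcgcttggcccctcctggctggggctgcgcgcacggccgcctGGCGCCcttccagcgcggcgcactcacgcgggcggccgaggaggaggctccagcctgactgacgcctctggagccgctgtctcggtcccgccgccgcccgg
The palindrome GTCTAGAC stood in the *Smad6* window across the start site, its first base at position -4 (the first transcribed base being 0). Of the 32851 promoter windows of the table, 70 (0.213%) held it. GGCGCC stood in the *Smad9* window with its first base at position -51, a string found in 11.9% of windows. The *Tgfb1* window held neither of these strings, nor the SMAD box CAGAC (49.6% of windows), nor the AP-1 element TGANTCA (7.81% of windows). Windows of uncalled members held such strings too. GGCGCC stood in a *Tgfbr1* window (first base at position -233), and CAGAC in windows of *Tgfb2*, *Tgfbr1* and *Tgfbr2*. Both strands were searched. A match is a string of letters and not a measured binding site.

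The ligand genes encode the 3 TGF-beta isoforms, which bind the same receptors. *Tgfb1* (ENSMUSG00000002603, chromosome 7, 25687002 to 25705077, GRCm38) encodes the isoform most abundant in blood platelets and immune cells. Its level was 0.763, 0.446 and 0.630 FPKM in Tyr-L libraries 1 to 3 and 2.61, 2.89 and 3.05 FPKM in Tyr-H libraries 1 to 3. Every Tyr-H library was above every Tyr-L library. The means were 0.613 ± 0.159 and 2.85 ± 0.223 FPKM (SD, n = 3), a ratio of 4.64. The log2 fold change was 2.07 (SE 0.18, 95% interval 1.66 to 2.48, limma adjusted p = 1.46e-05), and 2.22 without Tyr-L library 1. These levels rest on about 20 to 139 fragments per library, and a library could have shown a level of 0.0718 FPKM with 3 fragments. In a bulk library, fewer cells making a transcript and less transcript per cell cannot be told apart.

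*Tgfb2* (ENSMUSG00000039239, chromosome 1, 186622792 to 186705989), whose isoform needs the coreceptor betaglycan to bind its receptors well, had 2.65, 2.75 and 2.63 FPKM in Tyr-L cells against 2.92, 3.12 and 3.25 FPKM in Tyr-H cells. All Tyr-H libraries were slightly above the Tyr-L libraries, but the log2 fold change of 0.20 (95% interval -0.01 to 0.41) did not pass, with a limma adjusted p of 0.0892. Aligned by median ratios, it was 0.35 with a limma adjusted p of 0.00968, still under the threshold on size. *Tgfb3* (ENSMUSG00000021253, chromosome 12, 86056745 to 86079041), known for its part in palate closure, was the most abundant of the ligand genes with 4.98, 4.97 and 4.75 FPKM in Tyr-L cells against 5.35, 5.26 and 5.07 FPKM in Tyr-H cells. Its groups did not overlap either, and its log2 fold change was 0.09 (95% interval -0.07 to 0.25, limma adjusted p = 0.286), or 0.24 with an adjusted p of 0.0155 when aligned by median ratios. *Tgfb2* and *Tgfb3* overlap genes on the opposite strand (*Gm26169* and *Gm29491* for the former, *Ttll5* among others for the latter), and the sources used here do not say whether fragments were counted by strand.

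The mix of the ligand transcripts was also measured within each library, where *Tgfb1* took a larger part in every Tyr-H library. Within each library, *Tgfb1* made up 9.08%, 5.47% and 7.87% of the summed FPKM of the 3 ligand genes in Tyr-L cells and 24.0%, 25.6% and 26.8% in Tyr-H cells, while *Tgfb3* went from 59.8 ± 0.917% to 46.8 ± 2.29% and *Tgfb2* from 32.7 ± 1.03% to 27.7 ± 0.869%. For each share the groups did not overlap, and the exact permutation test (two-sided) gave p = 0.1, the smallest it can give with 3 libraries against 3. A share does not depend on how a library is scaled. The sum of the ligand genes was 8.19 ± 0.198 FPKM in Tyr-L cells against 11.2 ± 0.263 FPKM in Tyr-H cells, a difference that holds mainly *Tgfb1*. *Tgfb3* stayed the first ligand transcript in every library, as the stacked bars show.

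**Figure D2:**
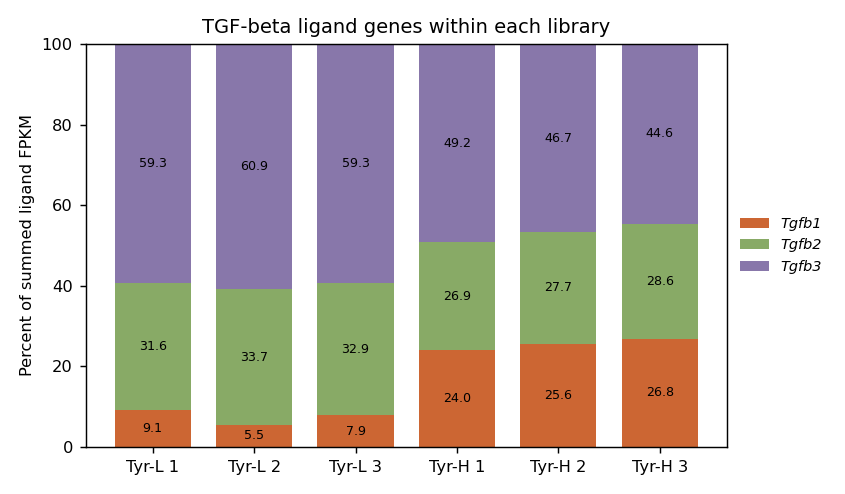
Share of *Tgfb1*, *Tgfb2* and *Tgfb3* in the summed FPKM of the 3 genes, in percent, with 1 stacked bar per library. The *Tgfb1* part fills 5.47% to 9.08% of the bars of Tyr-L cells and 24.0% to 26.8% of those of Tyr-H cells.

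The receptor genes did not pass the test in either direction. *Tgfbr1* (ENSMUSG00000007613, chromosome 4, 47353222 to 47414931), the type I receptor kinase, had the highest level of the 10 genes: 15.2, 13.4 and 15.5 FPKM in Tyr-L cells against 12.9, 14.1 and 13.1 FPKM in Tyr-H cells. *Tgfbr2* (ENSMUSG00000032440, chromosome 9, 116084293 to 116175360), the type II receptor that binds the ligand, had 7.74, 7.59 and 7.09 FPKM against 6.99, 7.23 and 6.76 FPKM. The groups overlapped for both genes. Their log2 fold changes were -0.13 (95% interval -0.29 to 0.02) and -0.09 (-0.24 to 0.05), with limma adjusted p = 0.111 and 0.241, and turned to 0.02 and 0.06 when the libraries were aligned by median ratios. *Tgfbr3* (ENSMUSG00000029287, chromosome 5, 107106570 to 107289629) encodes betaglycan, the coreceptor that presents ligand, and had 1.38, 1.27 and 1.42 FPKM in Tyr-L cells against 1.41, 1.34 and 1.39 FPKM in Tyr-H cells. Its log2 fold change was 0.02, with an interval of -0.26 to 0.31 (limma adjusted p = 0.881), which holds changes of that size in either direction. It shares its strand with *Gm42900*, *Gm43422* and *Gm43423*, whose fragments could have been counted with it. Of the summed receptor FPKM, *Tgfbr1* took 62.4% in Tyr-L and 61.5% in Tyr-H cells and *Tgfbr2* 31.8% and 32.2% (p = 0.5 and 0.8 in a two-sided exact permutation test). The share of *Tgfbr3* was 5.77 ± 0.131% and 6.36 ± 0.378%, without overlap, at the smallest p the exact permutation test allows, 0.1. The plot of levels by library sets these small spreads beside the shift of *Tgfb1*.

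**Figure D3:**
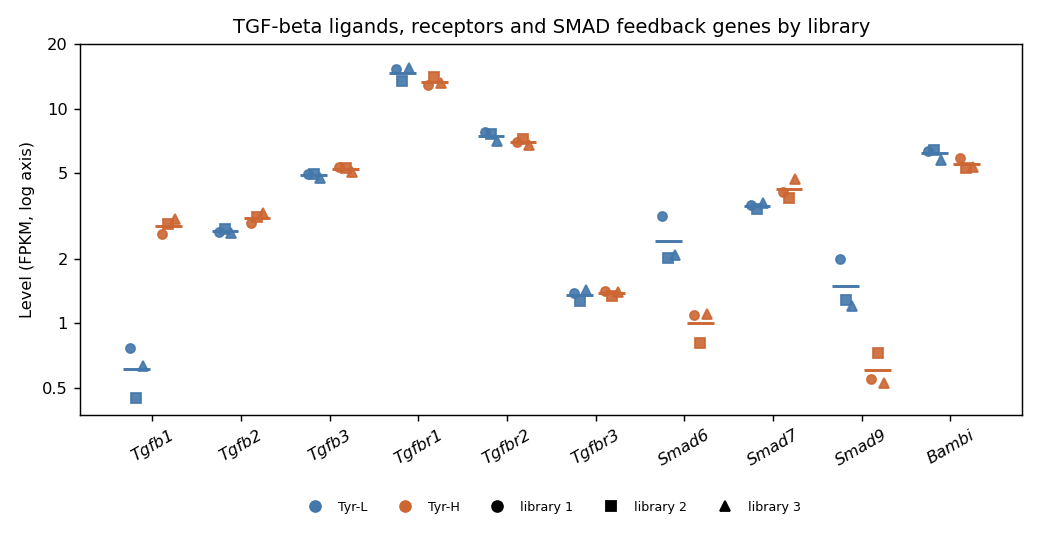
Level of each of the 10 genes in FPKM (log axis), with 1 point per library (color for the group, shape for the library number) and a bar at each group mean. *Tgfb1* rises from 0.446-0.763 to 2.61-3.05 FPKM, *Smad6* and *Smad9* lie lower in all Tyr-H libraries, and the receptor genes sit at like levels in both groups.

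Of the SMAD genes, *Smad6* (ENSMUSG00000036867, chromosome 9, 63953076 to 64022059) encodes an inhibitory SMAD that acts mainly on the BMP branch. Its Tyr-L libraries had 3.16, 2.01 and 2.07 FPKM, and its Tyr-H libraries 1.09, 0.809 and 1.10 FPKM. All Tyr-H libraries were below all Tyr-L libraries, and Tyr-L library 1 was above the other two. The means were 2.41 ± 0.647 and 1.00 ± 0.167 FPKM, which put Tyr-L at 2.41 times Tyr-H, with a log2 fold change of -1.17 (SE 0.20, 95% interval -1.62 to -0.72, limma adjusted p = 0.000779). *Smad9* (ENSMUSG00000027796, chromosome 3, 54755582 to 54801257), a receptor-activated SMAD of the BMP branch, moved alongside, from 1.98, 1.29 and 1.20 FPKM to 0.552, 0.726 and 0.527 FPKM. Again no Tyr-H library reached a Tyr-L library, and library 1 was the highest. The means were 1.49 ± 0.428 and 0.602 ± 0.109 FPKM, a ratio of 2.47 in favor of Tyr-L, and the log2 fold change was -1.16 (SE 0.22, 95% interval -1.65 to -0.67, limma adjusted p = 0.00144).

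Both calls lay close to the threshold on size. Without Tyr-L library 1 the log2 fold changes of *Smad6* and *Smad9* were -0.97 and -0.95, with limma adjusted p = 0.00242 and 0.00535, so both still passed on p but not on size. *Smad6* was 1.55 and *Smad9* 1.59 times as high in Tyr-L library 1 as in the mean of the other two Tyr-L libraries, and 1.12% of the 11026 genes averaging 1 FPKM or more reached 1.4 in this ratio. What this library's difference adds to the result was not tested beyond leaving it out.

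*Smad7* (ENSMUSG00000025880, chromosome 18) encodes the inhibitory SMAD that blocks both branches and is a classical target of TGF-beta. Its level was 3.57, 3.40 and 3.62 FPKM in Tyr-L cells against 4.08, 3.85 and 4.69 FPKM in Tyr-H cells, on the opposite side from *Smad6* and without overlap. The log2 fold change of 0.24 (95% interval 0.03 to 0.46) missed the threshold on p (limma adjusted p = 0.0529). Aligned by median ratios it was 0.39, with a limma adjusted p of 0.00659. The ratio of *Smad6* to *Smad7*, taken after their values were seen and so not tested, went from 0.683 ± 0.176 to 0.238 ± 0.0291. The sum of these 2 inhibitory genes over that of the other SMAD genes (*Smad1* to *Smad5* and *Smad9*) was 0.0655 ± 0.00836 and 0.0631 ± 0.00855 (exact permutation test, two-sided, p = 0.7).

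*Bambi* (ENSMUSG00000024232, chromosome 18) encodes a receptor-like protein without a kinase domain, which ties up type I receptors. It had 6.36, 6.41 and 5.78 FPKM in Tyr-L cells against 5.88, 5.27 and 5.36 FPKM in Tyr-H cells. The groups overlapped, and the log2 fold change of -0.17 (95% interval -0.34 to 0.01, limma adjusted p = 0.0934) was -0.01 when aligned by median ratios.

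Ordered by mean level, *Tgfbr1*, *Tgfbr2*, *Bambi*, *Tgfb3*, *Smad7* and *Tgfb2* came first to sixth in both groups. Below them the order turned: *Tgfb1* went from rank 10 in Tyr-L to rank 7 in Tyr-H cells, *Smad6* from 7 to 9 and *Smad9* from 8 to 10. Some neighbors could not be ordered beyond the spread of their libraries, namely *Tgfb2* with *Smad6* and *Smad9* with *Tgfbr3* in Tyr-L cells, and *Bambi* with *Tgfb3* and *Tgfb2* with *Tgfb1* in Tyr-H cells.

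To place the 10 genes in their pathway, 9 further lists of the TGF-beta superfamily were read from the same fit. Of their 99 genes, 61 were tested, and 5 passed as higher in Tyr-H cells, beside 2.96% of all tested genes, and 5 as lower, beside 5.78%. The lower genes were 3 without *Gdf7* and *Inha*, which entered the test only through their level in Tyr-L cells. The called genes were spread over 5 of the lists. The dots of the pathway plot show the lists side by side.

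**Figure D4:**
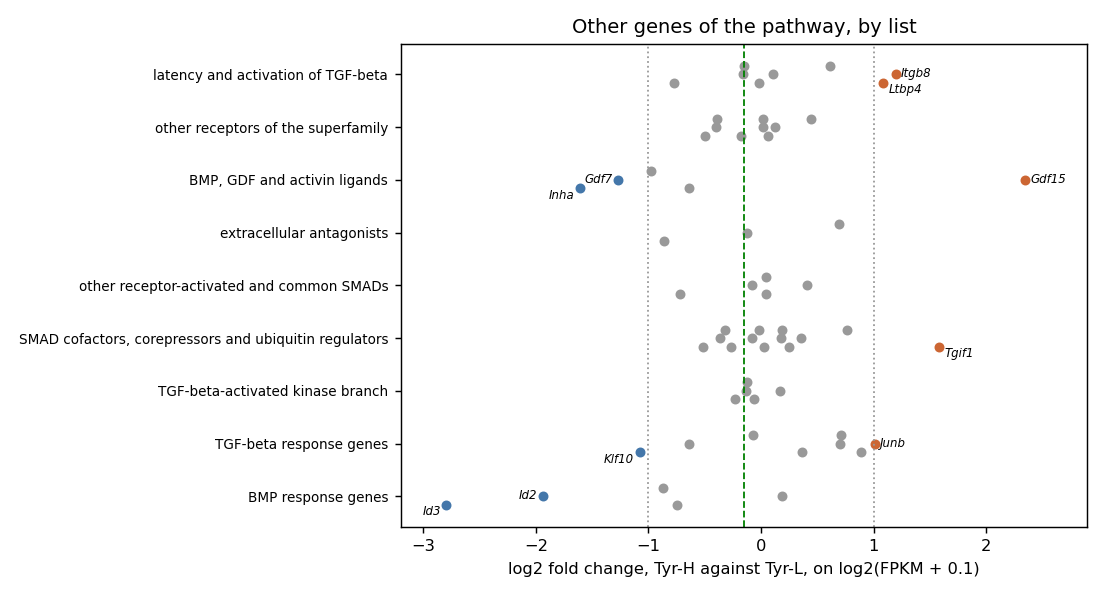
Log2 fold change, Tyr-H over Tyr-L on log2(FPKM + 0.1), of each tested gene in 9 further lists of the superfamily. Colored dots with names are called genes, dotted lines mark -1 and 1, and the dashed line is the median of all tested genes, -0.15. The widest spread is among the ligands and the BMP response genes, from *Gdf15* at 2.35 down to *Id3* at -2.79.

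Upstream of the receptors, 2 of the 8 tested genes that store or release latent TGF-beta were called higher, beside 2.96% of all tested genes. *Ltbp4*, which tethers latent TGF-beta to the matrix, went from 1.86 ± 0.425 to 4.01 ± 0.0720 FPKM (log2 fold change 1.09, limma adjusted p = 0.000196, but 0.96 and uncalled without Tyr-L library 2). *Itgb8*, the integrin subunit that releases it, went from 0.331 ± 0.0349 to 0.885 ± 0.0516 FPKM (1.19, limma adjusted p = 0.000454). With a pseudocount of 1 both fell short of the threshold on size (0.82 and 0.50). *Itgav*, the partner subunit of ITGB8, lay on the other side at 33.0 ± 0.538 and 19.4 ± 1.25 FPKM (-0.77, limma adjusted p = 3.02e-06), short of the threshold on size. *Furin*, the protease that cuts the precursor, was at 13.1 and 12.9 FPKM.

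Of 22 BMP, GDF and activin ligand genes, 11 were listed in any library and 5 were tested. Among these 1 was called higher, beside 2.96% of all tested genes, and 2 lower, beside 5.78%. *Gdf15*, a stress-induced member, rose from 3.97 ± 0.599 to 20.6 ± 3.05 FPKM (log2 fold change 2.35, limma adjusted p = 9.39e-07). *Gdf7* and *Inha* were called lower, at -1.27 and -1.61 (limma adjusted p = 0.0115 and 0.00363), from means of 0.350 and 0.364 FPKM in Tyr-L cells to 0.0898 and 0.0553 FPKM in Tyr-H cells. Their Tyr-H means lay under the level of 3 fragments in a library, at least 0.0954 and 0.0920 FPKM, and under the minimum mean of 0.1 FPKM. *Inha* was not listed in Tyr-H library 1. *Gdf7* lost its call without Tyr-L library 3 (-1.07, limma adjusted p = 0.0507) and without Tyr-H library 1 (-0.98). *Gdf11* went from 4.22 to 2.08 FPKM, at -0.98 just short of the threshold on size. It was called without Tyr-L library 2 (-1.03), when rescaled to a common total (-1.09) and with a pseudocount of 0.01 (-1.01). *Bmp2*, *Bmp4* and *Bmp7* were not listed in any library. Among 3 tested extracellular antagonists none was called, beside the same 2.96% and 5.78% of all tested genes. When the libraries were rescaled to a common total, 1 of the 3 was called lower. *Fstl1* lay at 0.69, *Twsg1* at -0.12 and *Fstl3*, on the other side from *Fstl1*, at -0.87 (1.03 ± 0.214 and 0.518 ± 0.0947 FPKM, limma adjusted p = 0.00582).

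Among the 9 tested other receptors none was called either, beside 2.96% of all tested genes as higher and 5.78% as lower. On p alone *Acvrl1* passed as higher (log2 fold change 0.44), and *Acvr1* (-0.40), *Bmpr2* (-0.40) and *Acvr2b* (-0.49) passed as lower. These were 1 and 3 of the 9, beside 17.9% and 39.9% of all tested genes. *Eng*, the endoglin coreceptor, was at 74.4 and 75.2 FPKM, far above betaglycan, and *Bmpr1a* at 12.8 and 13.4 FPKM. At the level of SMADs, *Smad5* of the BMP branch went from 36.8 ± 1.05 to 22.4 ± 1.07 FPKM (log2 fold change -0.72, limma adjusted p = 2.53e-06) and *Smad4*, the common partner, from 21.4 ± 0.948 to 28.3 ± 0.525 FPKM (0.40, limma adjusted p = 5.39e-05), both without reaching the threshold on size. With all libraries in, *Smad9* was the only SMAD gene outside the inhibitory ones that was called. It took 3.41 ± 0.960% of the summed *Smad1*, *Smad5* and *Smad9* FPKM in Tyr-L and 2.11 ± 0.270% in Tyr-H cells. The sum of these 3 genes went from 43.6 ± 1.19 to 28.4 ± 1.55 FPKM (share and sum were chosen after the values were seen, and not tested).

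Of 13 SMAD cofactors and regulators, 1 was called higher, beside 2.96% of all tested genes, and 0 lower, beside 5.78%. It was *Tgif1*, a corepressor of SMAD2 and SMAD3, from 3.46 ± 0.577 to 10.4 ± 0.508 FPKM (log2 fold change 1.58, limma adjusted p = 3.97e-06). *Tgif2* lay on the other side, at 21.9 ± 0.293 and 15.3 ± 0.627 FPKM (-0.51, limma adjusted p = 1.55e-05), short of the threshold on size. On p alone 6 genes of the list passed as higher and 4 as lower, beside 17.9% and 39.9% of all tested genes. *Ppm1a* and *Nedd4l*, the most abundant of this list, lay at 0.25 and 0.18. In the kinase branch none of 5 genes was called, beside 2.96% of all tested genes as higher and 5.78% as lower. There *Tab2* lay at 0.17 and *Map3k7*, the TAK1 kinase, at -0.24.

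Of 8 tested genes known to respond to TGF-beta, 1 was called higher, beside 2.96% of all tested genes, and 1 lower, beside 5.78%. *Junb* was the higher one (4.77 ± 0.144 to 9.78 ± 1.47 FPKM, log2 fold change 1.01) and *Klf10* the lower one (4.54 ± 0.191 to 2.10 ± 0.203 FPKM, -1.08), with limma adjusted p = 3.23e-05 and 2.01e-05. *Junb*, which overlaps *Prdx2*, lost its call without Tyr-L library 1 (0.99) or Tyr-H library 3 (0.90), when rescaled to a common total (0.92) and with a pseudocount of 1 (0.89). *Klf10* lost its call when aligned by median ratios (-0.93), with quantile normalization (-0.91) and with a pseudocount of 1 (-0.84). *Tsc22d1* and *Fn1*, the fibronectin gene, lay at 0.37 and 0.89, the latter being called at 1.04 when aligned by median ratios. Over the list 5 genes passed on p as higher and 1 as lower, beside 17.9% and 39.9% of all tested genes, with a median of 0.54 beside -0.15 for all tested genes.

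Of 5 tested genes known to respond to BMP, 2 were called lower, beside 5.78% of all tested genes, and none higher. The median log2 fold change was -0.87, beside -0.15 for all tested genes. *Id2*, an inhibitor of differentiation, was at 142, 92.1 and 97.6 FPKM in Tyr-L cells against 29.0, 29.2 and 26.7 FPKM in Tyr-H cells (log2 fold change -1.94, limma adjusted p = 3.98e-06). *Id3*, of the same family, went from 43.2, 19.8 and 23.3 FPKM to 3.71, 3.93 and 3.83 FPKM (-2.79, limma adjusted p = 1.00e-05). Both groups of libraries stayed apart in both genes. *Id1*, at 6.58, 3.11 and 3.18 against 3.30, 1.92 and 2.05 FPKM, did overlap (-0.75, limma adjusted p = 0.0505), and its log2 fold change was -0.40 without Tyr-L library 1 (limma adjusted p = 0.149). *Atoh8* went from 2.86 ± 0.654 to 1.51 ± 0.239 FPKM (-0.87, limma adjusted p = 0.00217, and -0.69 without Tyr-L library 1), passing on p but not on size. *Gata2* lay on the other side, at 0.524 ± 0.165 and 0.595 ± 0.0977 FPKM with overlap (0.19, limma adjusted p = 0.55, and 0.32 without Tyr-L library 1). As with *Smad6* and *Smad9*, Tyr-L library 1 was the highest in *Id1*, *Id2*, *Id3* and *Atoh8*, at 1.50 times the mean of the other two Tyr-L libraries for *Id2*, 2.00 for *Id3*, 2.09 for *Id1* and 1.45 for *Atoh8*. Without any single library, the log2 fold change of *Id2* stayed between -2.06 and -1.74 and that of *Id3* between -3.02 and -2.46. The plot of BMP branch genes by library shows this shared high point.

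**Figure D5:**
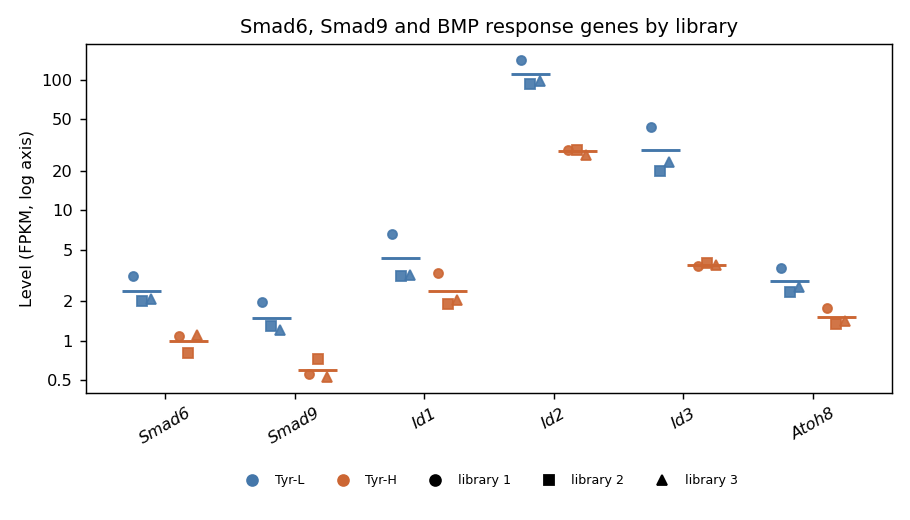
Level of *Smad6*, *Smad9* and BMP response genes in each library in FPKM (log axis), with 1 point per library (color for the group, shape for the library number) and a bar at each group mean. Tyr-L library 1 is the highest Tyr-L library for *Smad6*, *Smad9*, *Id1*, *Id2*, *Id3* and *Atoh8*, and for each of these genes except *Id1* all Tyr-H libraries lie below all Tyr-L libraries.

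*Mitf*, the master regulator of the melanocyte lineage, went from 90.5 to 25.0 FPKM between the same groups, and the 7 melanocyte lineage markers summed to 7343-7660 FPKM for Tyr-L against 5438-5958 FPKM for Tyr-H cells.

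The genes most like *Tgfb1* in pattern, by the root mean square difference of centered log2 levels over the 6 libraries among the 11025 other genes averaging 1 FPKM or more, were *Lif* (0.138), *Ero1l* (0.142) and *Plscr2* (0.155). *Lif*, a cytokine gene on chromosome 11 (4257557 to 4272514), had 0.734 ± 0.143 FPKM in Tyr-L cells against 3.54 ± 0.198 FPKM in Tyr-H cells. *Ero1l*, an oxidase of the endoplasmic reticulum, was at 53.1 and 199 FPKM, and *Plscr2* at 1.90 and 8.47 FPKM. The libraries compared are those of the 2 groups, so the step between the groups is part of this likeness.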

How the data were processed

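RNA sequencing of 3 Tyr-H and 3 Tyr-L libraries (mRNA, paired reads) was analysed from the deposited tables, in which the authors give FPKM per gene. The submitters' processing notes name Trimmomatic, HISAT2 and build GRCm38.p6. The program that computed FPKM and its annotation are not given in the sources used here. A gene that a library does not list was taken as 0. Gene positions come from GENCODE M21 (GRCm38), which matched 20709 of 20788 genes. Depth was estimated from the lowest steps of FPKM in transcripts of at least 1500 bases. Such steps and floors of 3 fragments cover counting error only.

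Groups and numbers follow the labels. Genes averaging 0.1 FPKM or more across libraries entered limma 3.58.1 (R 4.3.3) on log2(FPKM + 0.1), with a variance trend and Benjamini-Hochberg adjustment. A fold change on this scale understates that of low genes. Shares were compared with exact permutation tests (scipy 1.17.1). In data simulated for this comparison, 164 of 189 changed genes that were tested (86.8%) were recovered and 7 unchanged genes were called, of 14091 tested. At most 1 value was identical between any 2 libraries. The members, though taken by symbol with no threshold on their values, and the pathway lists were chosen with earlier results of these data known. Named genes were all 10 members; in each other list, the called genes and the 2 with the highest mean; the 3 genes most like the member with the largest change; *Tyr*; and genes of the cell type marker lists. *Id1*, *Atoh8*, *Gata2*, *Fstl3*, *Prdx2*, *Bmp2*, *Bmp4*, *Bmp7*, *Tgif2*, *Acvr1*, *Acvr2b*, *Acvrl1*, *Bmpr2* and the structural RNAs were added after their values were seen. Alternatives were other pseudocounts, filters, scalings, no variance trend, a replicate block, no threshold on size, and leaving out each library. Promoter windows of *Tgfb1*, *Tgfb2*, *Tgfbr1*, *Tgfbr2*, *Smad6* and *Smad9* were matched by symbol, 6 of the 8 members looked up.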

Additional observations from a re-analysis of the deposited data

How the results depend on the processing

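*Tgfb1* was called higher under every alternative tried, with log2 fold changes of 1.89 to 2.22 when single libraries were left out. *Smad6* and *Smad9* were lower under every alternative, but their calls were lost with a pseudocount of 1 (-0.76 and -0.62), with quantile normalization (-0.9987 and -0.98) and without Tyr-L library 1. Leaving out single libraries gave -1.28 to -0.97 for *Smad6*, -1.29 to -0.95 for *Smad9*, and 0 to 2 members called lower. With a pseudocount of 1, 0 members were called lower (limma), as with quantile normalization. At an adjusted p of 0.05 alone both genes passed in each of these settings.

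Counts over all genes were 185 higher and 203 lower with a pseudocount of 1, 247 and 393 for genes averaging 1 FPKM or more, and 2570 and 5722 without the threshold on size; quantile normalization gave 611 higher and 494 lower, turning the balance from 425 and 829. The 9 further lists together gave 2 and 2 with a pseudocount of 1, where *Ltbp4*, *Itgb8*, *Gdf7* (-0.31), *Inha* (-0.37), *Junb* and *Klf10* lost their calls, 3 lower for genes averaging 1 FPKM or more, and 19 and 18 without the threshold on size.

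Among the members and the genes named by rule in the lists, changes of sign were limited to values near 0. With median ratios these were *Tgfbr1* (0.018), *Tgfbr2* (0.058), *Furin* (0.14) and *Twsg1* (0.029). With quantile normalization they were *Tgfbr1* (0.015), *Tgfbr2* (0.075), *Bambi* (0.019), *Furin* (0.13) and *Twsg1* (0.010). Rescaling to a total of 1000000 FPKM turned *Tgfb3* (-0.00023), *Tgfbr3* (-0.066), *Eng* (-0.079) and *Bmpr1a* (-0.034). Leaving out single libraries gave -0.021 to 0.056 for *Tgfbr3*, -0.0029 to 0.034 for *Eng* and -0.053 to 0.047 for *Furin*. The difference in receptor share ran from -2.06 to 0.11 percentage points for *Tgfbr1* and from -0.78 to 1.50 for *Tgfbr2*. The difference in the ratio of inhibitory to other SMAD genes ran from -0.0067 to 0.0025, and was 0.0018 with medians in place of means. The cause of these changes was not tested.

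The replicate numbers are shared between the groups. Deviations of same-numbered libraries correlated at only 0.022, 0.013 and -0.083, against -0.106 to 0.092 over all pairs, so no shared deviation stood out. This cannot tell whether same-numbered libraries were handled together, because such handling need not leave a shared deviation. With a replicate block, 430 genes were called higher and 828 lower, with 1 member higher and 2 lower, and the limma adjusted p was 0.000118 for *Tgfb1*, 0.000782 for *Smad6* and 0.00339 for *Smad9*. *Tgfb1*, *Smad6* and *Smad9*, with about 20, 53 and 54 fragments in their lowest library, carry the most counting error of the 10 members. Of the called list genes, *Itgb8*, *Gdf7* and *Inha* had under 54 as well, at 51, 1 and 0, and so did uncalled ones such as *Fstl3* (17), *Gata2* (25) and *Id1* (46).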

Other observations

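Tyr-L library 1 differed from the other two Tyr-L libraries in a small set of genes. Its ratio to their mean was at least 1.4 in 123 of 11026 genes, with a median of 1.00 over all of them. Among the TGF-beta genes *Smad9* (1.59), *Smad6* (1.55) and *Tgfb1* (1.42) were in that number, whereas *Tgfb2*, *Tgfb3*, the receptor genes, *Smad7* and *Bambi* lay between 0.987 and 1.06. The structural RNAs *Rn7s1* (3.70), *Rn7s2* (3.33) and *Rn18s-rs5* (2.75) were also in it. In Tyr-H library 1, set against the other two Tyr-H libraries in the same way, 0.771% of genes reached 1.4, with *Id1* at 1.66, *Atoh8* at 1.30, *Smad6* at 1.15 and *Smad9* at 0.881.

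*Tgfb1* moved the other way from *Smad6* and *Smad9* between the groups, yet all 3 were highest among Tyr-L libraries in library 1. For *Tgfb1* the ratio of 1.42 was just above 1.4 and rests on few fragments, about 20 in its lowest library. Whether it exceeds counting error was not tested. Leaving that library out enlarged the difference in *Tgfb1* (log2 fold change 2.22) and reduced the differences in *Smad6* and *Smad9* (-0.97 and -0.95). These directions follow from library 1 being the highest, so they add nothing to it.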
